A study of Arabidopsis thaliana with 6 samples.

Results

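Genes for making and degrading leaf starch were followed in Arabidopsis thaliana leaves that had received saliva of the green peach aphid (Myzus persicae). The genes were taken from a list of 39 loci, 17 for starch synthesis and 22 for starch breakdown, and kept where a probe set read that locus alone. This left 6 genes, 3 for synthesis (APL3, APL4 and SBE2.2) and 3 for breakdown (PWD, AMY1 and DPE1), of 8200 genes with such a probe set in the series. The other 33 loci, among them all listed starch synthases, beta-amylases, glucan phosphatases and phosphorylases, had no probe set assigned to them in the annotation used and were not analysed here. They may be among the 6513 probe sets that were tested without a gene name. In the saliva group, leaves of wild-type Col-0 plants 3 weeks old were infiltrated through a needleless syringe with a sucrose and amino acid diet on which aphids had fed, and in the control group with the same kind of diet from cups with 0 aphids. Both groups therefore received sucrose. A sample was a pool of 18 leaves from 6 plants (3 leaves a plant), taken 24 h after infiltration and hybridised to its own Affymetrix ATH1 array, where short oligonucleotide probes grouped into probe sets report transcript levels as brightness. Saliva and control plants grew in shared pots and the whole experiment had 3 repeats, so that 3 saliva and 3 control arrays form 3 pairs.

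Leaf starch is the carbohydrate store that chloroplasts lay down by day and degrade by night. ADP-glucose pyrophosphorylase makes the glucosyl donor ADP-glucose, starch synthases build linear glucan chains, and branching enzymes add the branch points. At night, water dikinases phosphorylate the granule surface, amylases and debranching enzymes release maltose and other short glucans, and disproportionating enzymes recycle these. Sugars are known to raise transcripts of some synthesis genes, APL3 among them.

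Of the 6 genes, only APL3 had an intensity above that of the control array in every pair, as did 16.7% of all probe sets. AMY1 had the largest mean difference, which came from the saliva arrays of repeats 1 and 3. The other 4 genes, APL4, SBE2.2, PWD and DPE1, had mean differences between -0.13 and 0.04 on the log2 scale, saliva minus control. In a limma fit over all 15177 probe sets with the pairs as a block, 0 of the 6 genes passed an adjusted p under 0.05 in either direction, where the share of all probe sets called was 0% higher and 0% lower. Without adjustment, at p under 0.05, 1 of the 6 was higher (APL3) and none was lower, against 5.59% and 5.44% of all probe sets. The median difference was 0.003 over the 6 genes and -0.0006 over all probe sets.

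**Figure D1:**
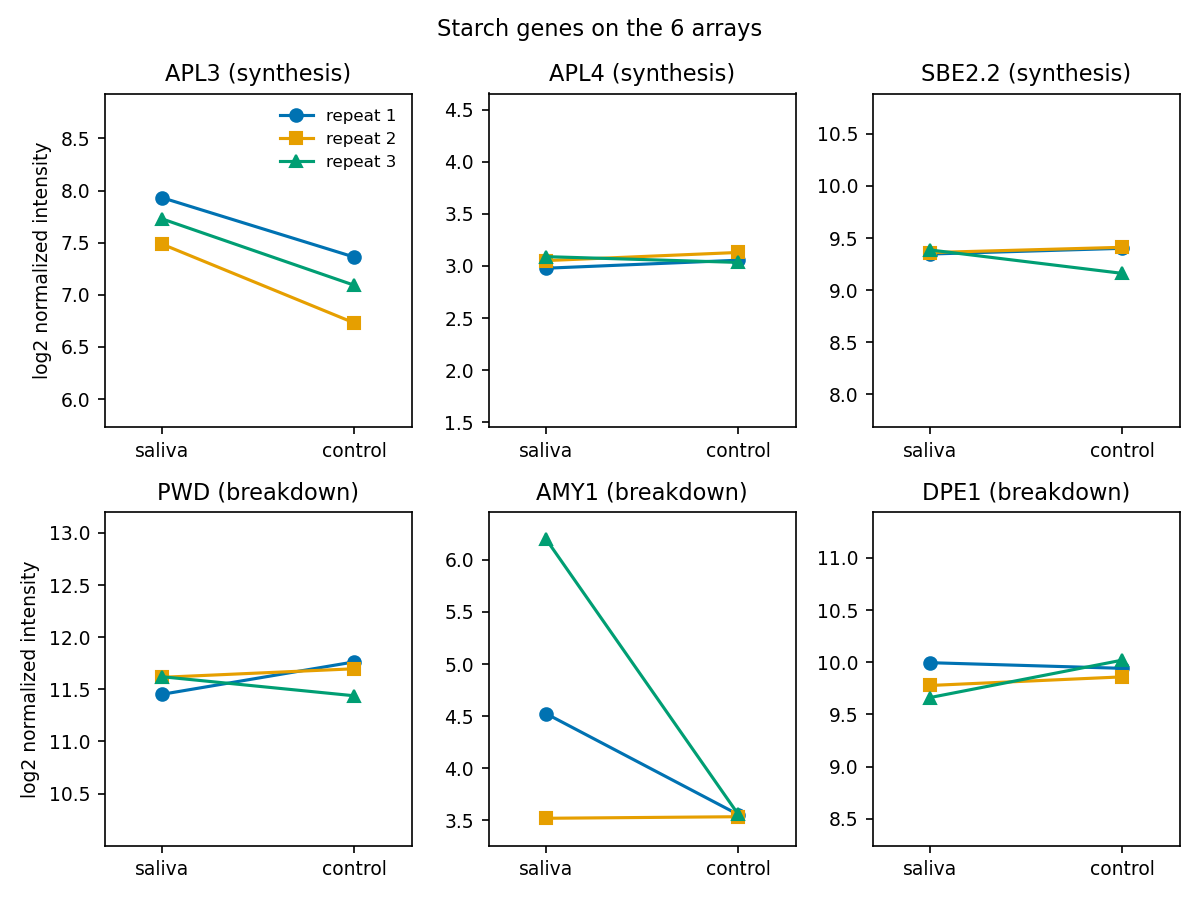
Log2 normalized intensity (vertical axis) of the 6 starch genes on the 3 saliva and 3 control arrays, 1 panel per gene, each spanning the same number of log2 units, with a line joining the samples of a repeat. The lines of APL3 run in parallel with saliva above control, AMY1 has an intensity of 73.3 on 1 saliva array against at most 11.8 on the controls, and the other genes cross or lie flat.

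APL3 (AT4G39210) encodes a large, regulatory subunit of ADP-glucose pyrophosphorylase that is known more from sugar-fed and non-green tissue than from the bulk leaf, where APL1 is the usual large subunit. Its normalized intensity was 244, 179 and 212 on the saliva arrays of repeats 1, 2 and 3, against 165, 106 and 136 on the control arrays. Every saliva array lay above every control array, and in both groups repeat 1 was highest and repeat 2 lowest. Of all probe sets, 7.66% also had every saliva array above every control array and 8.58% had every one below. The log2 differences were 0.57, 0.75 and 0.64 in pairs 1, 2 and 3, with a mean of 0.65 ± 0.094 (SD, n = 3 pairs) and a 95% interval, not adjusted for the number of genes, of 0.43 to 0.87, a ratio of 1.57. The control arrays alone spanned 0.63 log2 units, about as much as the difference between the groups, so the small spread belongs to the differences within pairs and not to the levels. The limma adjusted p was 0.338, which was also the lowest of any probe set, and by unadjusted p (0.000904) APL3 stood at rank 32 of 15177. In the authors' deposited table APL3 has a fold of 1.56, a paired false discovery rate of 0.0331 and an unpaired rate of 0.317. The authors' deposited table lists 1.41% of all probe sets with a paired rate under 0.05 and a fold above 1, 1.64% with a fold below 1, and 0% with an unpaired rate under 0.05. APL3 was the 1 of the 6 starch genes under that paired rate in the authors' deposited table, where the other 5 range from 0.216 to 0.783.

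APL4 (AT2G21590) encodes another large subunit of the same enzyme, one that, like APL3, is known more from sink tissues. It was dim on every array, with intensities of 7.88, 8.29 and 8.51 after saliva and 8.31, 8.75 and 8.19 in controls, where the lowest intensity on an array was between 3.23 and 3.28. The groups overlapped, and the log2 difference was -0.03 ± 0.077 (SD, n = 3 pairs), with a 95% interval of -0.24 to 0.18 (limma adjusted p = 0.938). At so low a level a change in the transcript may not be readable.

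SBE2.2 (AT5G03650) encodes a branching enzyme, which cuts linear glucan chains and rejoins them as branches. Its intensity was 651, 658 and 669 after saliva, against 676, 681 and 573 in controls. The saliva arrays lay within a narrow range inside that of the controls, of which repeat 3 was lowest. The log2 differences were -0.055, -0.050 and 0.22, with a mean of 0.04 ± 0.16 (SD, n = 3 pairs) and a 95% interval of -0.22 to 0.30 (limma adjusted p = 0.94).

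Among breakdown genes, PWD (AT5G26570) encodes phosphoglucan, water dikinase, which adds phosphate to glucans that the first dikinase, GWD1, has already phosphorylated and so loosens the granule surface. It was bright on all arrays, with 2802, 3137 and 3148 after saliva and 3475, 3320 and 2774 in controls. Saliva was below control in pairs 1 and 2 and above it in pair 3, and the groups overlapped. The log2 difference was -0.07 ± 0.25 (SD, n = 3 pairs), with a 95% interval of -0.39 to 0.25 (limma adjusted p = 0.887). Without replicate 1 the mean was 0.050, so its sign rests on that pair.

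DPE1 (AT5G64860) encodes the plastid disproportionating enzyme, which turns maltotriose into glucose and longer glucans. Its intensity was 1021, 878 and 810 after saliva, against 983, 929 and 1038 in controls. The groups overlapped, with the highest value of the controls in repeat 3 and the lowest saliva value in that same repeat. The log2 difference was -0.13 ± 0.21 (SD, n = 3 pairs), with a 95% interval of -0.42 to 0.17 (limma adjusted p = 0.712). Without replicate 3 it was -0.01.

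AMY1 (AT4G25000) encodes an alpha-amylase that, unlike the plastid enzymes of nightly starch turnover, is secreted, and that is known from senescing and stressed leaves. Its intensity was 23.0, 11.5 and 73.3 on the saliva arrays of repeats 1, 2 and 3, against 11.8, 11.6 and 11.8 on the control arrays. The controls were nearly equal, 1 saliva array lay just below them and the other 2 lay above. The controls were also dim, where the lowest intensity on an array was between 3.23 and 3.28 and the median between 139.2 and 146.8. This dimness limits what their near-equality and the ratios to them can say. The log2 differences were 0.97, -0.02 and 2.64, with a mean of 1.2 ± 1.34 (SD, n = 3 pairs) and a 95% interval of -0.23 to 2.62 (limma adjusted p = 0.496). The difference between the saliva samples was thus larger than the mean difference from control, and the mean was 0.48 without replicate 3, 1.31 without replicate 1 and 1.80 without replicate 2. Differences over all probe sets were most spread in pair 3, with an SD of 0.42, against 0.28 in pair 1 and 0.32 in pair 2; the part of this in the AMY1 value was not tested. The authors' deposited table gives AMY1 a fold of 3.07 as a ratio of linear means, with a paired rate of 0.216, while the ratio from the mean of log2 values was 2.29. The array with 73.3 weighs more in a mean of linear values.

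**Figure D2:**
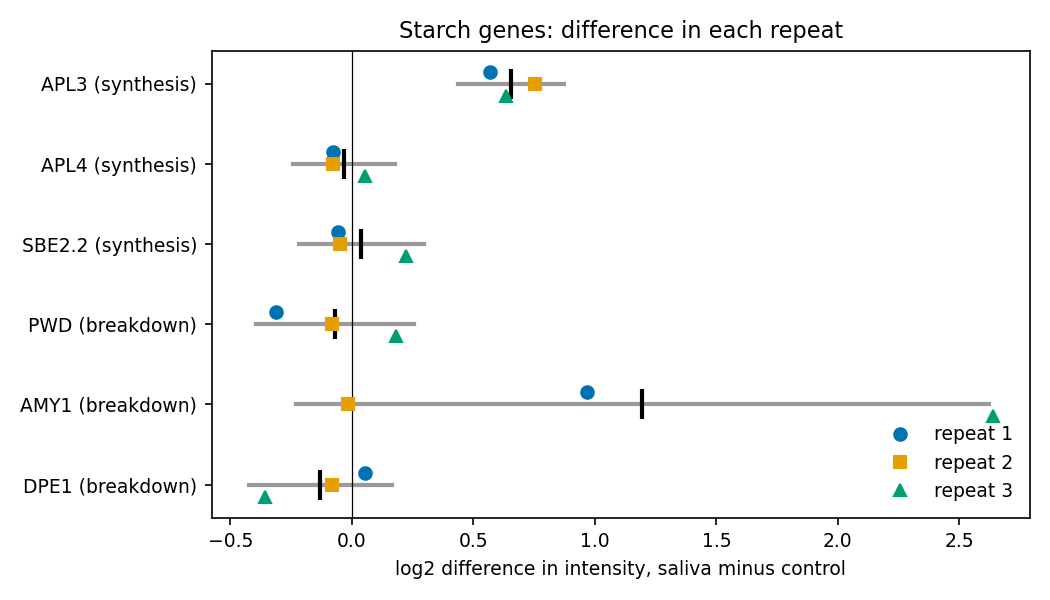
Log2 difference in normalized intensity, saliva minus control (horizontal axis), for the 6 starch genes; each symbol is 1 repeat, the black tick the mean and the grey bar the 95% interval of the limma fit. The 3 symbols of APL3 lie between 0.57 and 0.75, those of AMY1 spread between -0.02 and 2.64, and the intervals of all genes but APL3 include 0. These intervals are not adjusted for the number of genes, and the limma adjusted p of APL3 was 0.338.

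Synthesis and breakdown were compared over the measured genes, as a description without a test. The mean log2 difference over the 3 synthesis genes was 0.15, 0.21 and 0.31 in pairs 1, 2 and 3, and that over the 3 breakdown genes was 0.24, -0.06 and 0.82. Synthesis minus breakdown was therefore -0.09, 0.27 and -0.51, with a mean of -0.11 ± 0.39 (SD, n = 3 pairs), which is within the spread between pairs. Each side was carried by a single gene. Without APL3 the synthesis mean was 0.003, and without AMY1, a choice made after its values were seen, the breakdown mean was -0.13, -0.08 and -0.09 in the 3 pairs. Without AMY1 the mean of synthesis minus breakdown was 0.32, of the opposite sign. Without APL3, also chosen after the values were seen, it was -0.33, with -0.30, -0.0044 and -0.68 in the 3 pairs. APL3 and AMY1 did not share an order over the repeats: the difference of AMY1 was lowest in pair 2, where that of APL3 was highest.

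**Figure D3:**
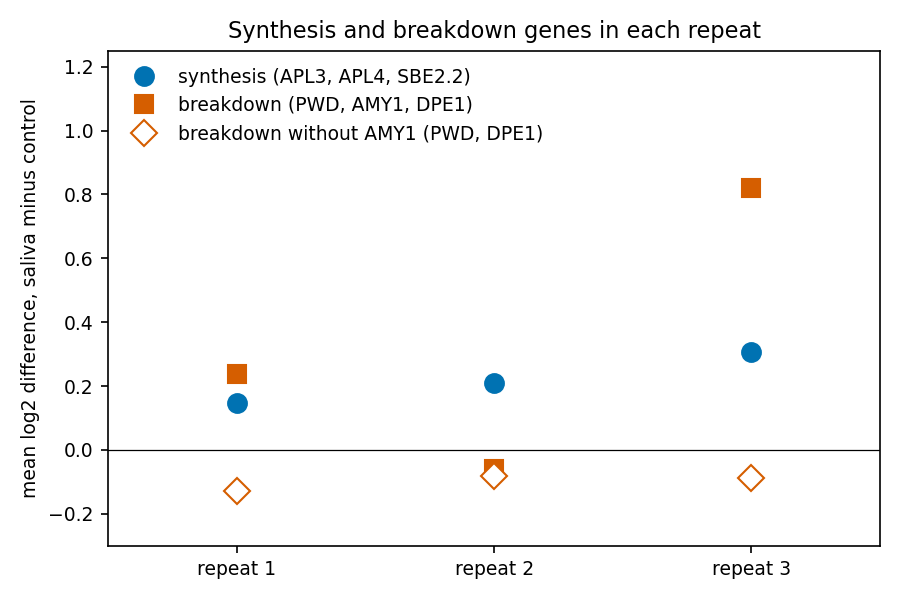
Mean log2 difference, saliva minus control (vertical axis), over the 3 synthesis genes (circles), the 3 breakdown genes (squares) and the breakdown genes without AMY1 (open diamonds), in each repeat. Synthesis lies between 0.15 and 0.31, breakdown between -0.06 and 0.82, and breakdown without AMY1 between -0.13 and -0.08.

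Related genes of starch granules and sugar metabolism were read from 8 lists with 84 loci, of which 14 had a probe set of their own. Of these 14, 0 passed the limma test at an adjusted p under 0.05. Without adjustment, 2 were higher at p under 0.05 (LESV and FRK1) and 1 was lower (PTST1), where 5.59% and 5.44% of all probe sets were. In all 3 pairs 2 of the 14 were above 0 and 4 were below, where 16.7% and 15.6% of all probe sets were. Every saliva array lay above every control array in 2 of the 14 (LESV and FRK1) and below in 1 (PGIC). Of all probe sets, 7.66% lay above and 8.58% below in this way. The lists for plastid envelope transport, trehalose 6-phosphate and sugar-repressed genes had 0 measured members.

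Of the 10 listed proteins of starch granules and their carriers 5 were measured. LESV (AT3G55760) encodes a starch-binding protein that is known to help order glucan chains in the granule matrix. Its intensity was 208, 242 and 184 after saliva, against 166, 173 and 167 in controls, so that every saliva array lay above every control array. The log2 difference was 0.32 ± 0.17 (SD, n = 3 pairs; limma adjusted p = 0.415). PTST1 (AT5G39790), which carries granule-bound starch synthase to the granule, had 124, 122 and 139 after saliva, against 164, 129 and 177 in controls. Saliva was below control in each pair, though the groups overlapped, and the difference was -0.28 ± 0.17 (SD, n = 3 pairs; limma adjusted p = 0.436). The other 3, PTST2, PTST3 and SS5, which act in the start of new granules, had differences between -0.10 and 0.06.

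Genes of sucrose synthesis and hexose phosphorylation were measured in smaller numbers. FRK1 (AT2G31390), a fructokinase, had 300.3, 278 and 335 after saliva, against 258, 242 and 255 in controls, again without overlap. Its log2 difference was 0.27 ± 0.11 (SD, n = 3 pairs; limma adjusted p = 0.415). PGIC (AT5G42740), the cytosolic phosphoglucose isomerase of sucrose synthesis, had 483, 403 and 497 after saliva, against 547, 504 and 527 in controls. Here every saliva array lay below every control array, with a difference of -0.20 ± 0.12 (SD, n = 3 pairs; limma adjusted p = 0.496). FRK3, a plastid fructokinase, had -0.22 ± 0.49, and SPP2, which makes sucrose from its phosphate, had -0.06 ± 0.13 (SD, n = 3 pairs).

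VI1 (AT1G62660), a vacuolar invertase that cleaves sucrose, had 638, 573 and 1021 after saliva, against 572, 635 and 506 in controls. Its saliva value in repeat 3 stood above the other 5 arrays, as AMY1's did. The log2 differences were 0.16, -0.15 and 1.01 (limma adjusted p = 0.663), and the mean was 0.34 with all pairs and 0.006 without replicate 3. SWEET11, a sucrose exporter of the leaf phloem region, had -0.24 ± 0.30, and TMT1, a sugar carrier of the vacuole membrane, had -0.16 ± 0.21 (SD, n = 3 pairs). Without replicate 1 SWEET11 had -0.085, and without replicate 3 TMT1 had -0.047.

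**Figure D4:**
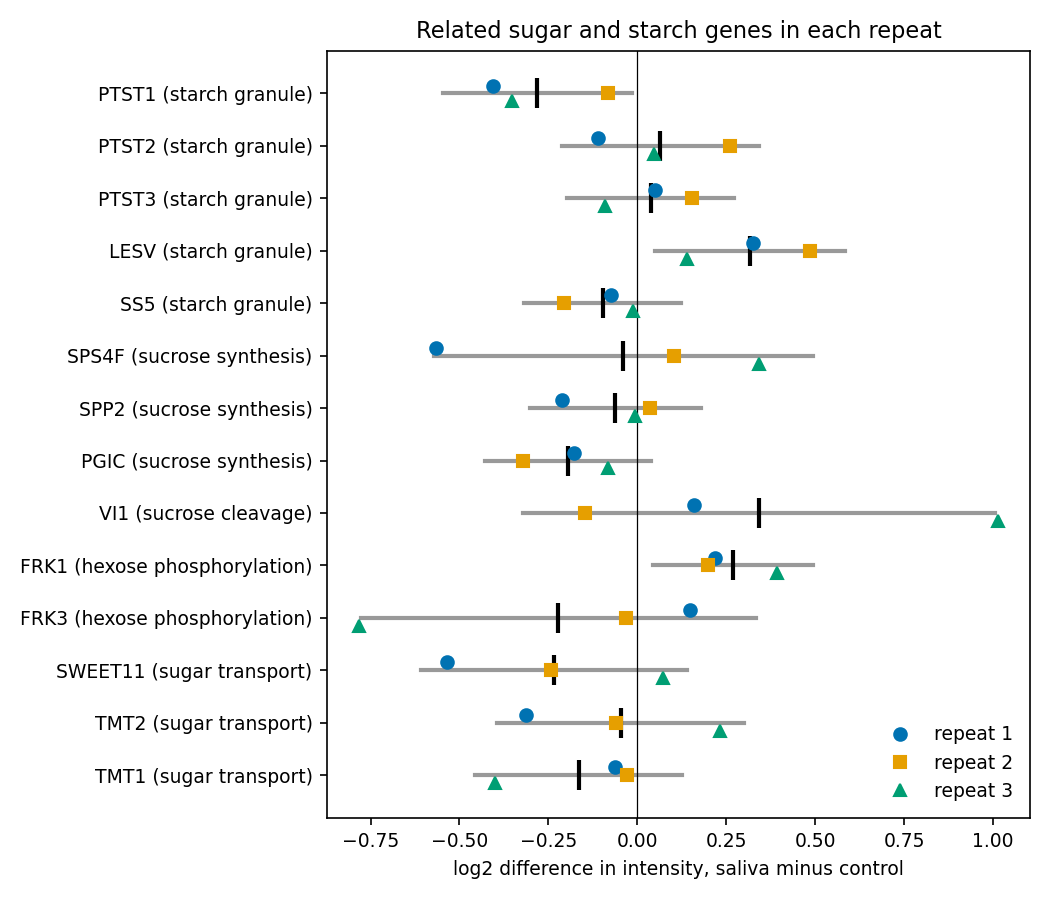
Log2 difference in normalized intensity, saliva minus control (horizontal axis), for the 14 measured genes of starch granules and sugar metabolism; symbols are repeats, the black tick is the mean and the grey bar the 95% interval of the limma fit, not adjusted for the number of genes. LESV and FRK1 lie above 0 in all 3 repeats, PTST1, PGIC, SS5 and TMT1 below 0, and VI1 spans -0.15 to 1.01.

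As a check of the tissue, 3 of 10 listed mesophyll markers were measured, and all were bright, LHCB4.1 with intensities between 26699 and 29573. The summed intensity of these 3, mostly LHCB4.1, was 46418, 45914 and 48815 on the saliva arrays. On the control arrays it was 50671, 50505 and 51052, without overlap. Taken singly, LHCB4.1 and PRK overlapped between the groups, and PRK was above control in pair 3. Only SBPASE had every saliva array below every control array, as did 8.58% of all probe sets. The 3 markers had log2 differences between -0.18 and -0.07, with limma adjusted p of at least 0.523. Of 7 guard cell markers 2 were measured, and they summed to 709, 545 and 476 after saliva. In controls they summed to 610, 693 and 695, so the groups overlapped. Most of that sum was GASA9, with a log2 difference of -0.27, while FAMA had 0.19. No marker was at 0, which says nothing of the tissue, as 0 values of any probe set were at or below 0. The 6 phloem and 5 root markers listed had no probe set assigned to them in the annotation used. APL3 and the mesophyll sum went opposite ways in every pair, and the part of tissue makeup in the starch gene values was not tested. In whole leaves, fewer cells of a type and less RNA per cell cannot be told apart.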

How the data were processed

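RNA of 6 leaf samples was hybridised to 6 arrays. The intensity values deposited by the authors are normalized, linear, and given once for each probe set on each array. The submitters' processing notes name GCOS, GCRMA and limma, with roles and versions not given in the sources used here. Besides, the authors deposited a ratio of group means (fold) and, per the file headers, paired and unpaired false discovery rates (adjusted p-values or q-values). The 2 deposited tables differed in 0 cells of array values, and 0 columns of per-sample values were left unused.

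Values were set on the log2 scale here with no pseudocount, as 0 of them were at or below 0. After removal of 59 Affymetrix controls, 15177 probe sets entered a fit with limma 3.58.1 in R 4.3.3 (lmFit, then eBayes) with repeats as a fixed block, because the labels' protocols describe shared pots. Adjustment of p-values was by Benjamini-Hochberg over all of them. The procedure was tested on simulated data. Deviations from group means correlated within pairs by -0.12, 0.15 and 0.10 across probe sets. Probe sets were named where the annotation gave 1 gene (8330 probe sets; 334 had several), and 8298 of these were matched by gene number to the RefSeq table of assembly TAIR10.1. None of the starch genes was read by a probe set of several genes, and each measured one had 1 probe set. Some short names of related genes are common names that the tables give only as loci.

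Precision is limited by the number of arrays, which have no depth in reads; median intensities lay between 139.2 and 146.8. Named genes are all measured starch genes and, of each related list, up to 2 with the smallest p, others being given as ranges or in a plot. The members and lists were chosen with earlier results of these data known. No p is given for a list. Raw file names set repeat 1 apart from repeats 2 and 3, and whether this marks a batch is not known here. Leaving out replicate 1 gives the value within the 2 pairs of repeats 2 and 3, while the 1 pair of repeat 1 allows no test. The labels call the repeats independent biological ones.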

Additional observations from a re-analysis of the deposited data

How the results depend on the processing

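The count of starch genes called stayed at 0 higher and 0 lower with no replicate block (0 and 0), with probe sets under a mean log2 of 4 removed (which drops APL4 and keeps AMY1 through its saliva arrays, its control mean being 3.55), and with quantile normalization or median centring. The same held for array weights, an intensity trend in eBayes, an adjusted p under 0.1, averaging of probe sets per locus, each pair left out and, chosen after seeing the data, a random block at the estimated correlation of -0.054. In the main fit 0 of 15177 probe sets were called in either direction, and the lowest adjusted p of any was 0.338. A count of 0 starch genes was therefore fixed there, also at an adjusted p under 0.1. For the other fits the share of all probe sets called is not given here, so their 0 counts say nothing particular to starch genes. With p under 0.05 unadjusted, a looser threshold by construction, 1 was higher, against 5.59% of all probe sets. APL3 had differences between 0.60 and 0.70 in all 11 other fits. Its adjusted p lay between 0.178 (array weights, which weight pair 2 most) and 0.789 (without replicate 2). Only quantile normalization and median centring could change its sign, as other fits reuse or average pair differences, all above 0. AMY1 lay between 0.48 and 1.80 in the 11 fits, with 0.70 under array weights. Synthesis minus breakdown was 0.32 without AMY1, -0.33 without APL3, between -0.30 and 0.089 with a pair left out and 0.047 with array weights, so its sign is not settled; the value with dim probe sets removed, 0.014, bears on nothing, as AMY1 stays in through the group where it is high. Among the named genes, 4 crossed 0 with a pair left out: PWD (-0.20 to 0.050), SBE2.2 (-0.053 to 0.087), SPP2 (-0.11 to 0.014) and FRK3 (-0.41 to 0.058). The cause was not tested. Related genes given only as ranges or in a plot were not in this check, so the count does not cover them. Moving the isoamylases to breakdown or leaving out precursor supply could give no other value, as none of these genes was measured. Signal near the lowest intensities limits APL4 and the control level of AMY1.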
